A study of Mus musculus with 6 samples.

Results

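The genes that copy DNA and supply its building blocks were followed in mouse granulocyte-macrophage progenitors as the chaperone CAF-1 was depleted or the transcription factor HOXA9 was switched off. The set holds 35 genes, named as a list of replication and nucleotide supply genes, and all 35 were found among the 27998 gene columns of the table. Each cell was read by droplet sequencing of transcript 3′ ends, in which a unique molecular identifier (UMI) counts each captured transcript molecule. There were 6 libraries, 1 per group, so differences between groups were not tested and are given by their size alone.

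All cells carried a Lysozyme promoter-driven GFP reporter and HOXA9 fused to an estrogen receptor ligand-binding domain, had the strain label C57BI/6, and grew with stem cell factor. These iGMPs self-renew while estradiol keeps the fusion active. The CAF-1 OFF arm used cells with an IPTG-inducible hairpin against Chaf1b, a subunit of CAF-1, kept in 150 ng/mL estradiol throughout and given 500 µM IPTG for 48 or 96 h. Cells of the HOXA9 OFF arm carried a control hairpin and were cultured without estradiol for 48 or 96 h. Each arm has its own 0 h library, in estradiol and without IPTG (uninduced). The arms are different clones, so arm and clone cannot be told apart.

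Replication starts when the origin recognition complex, CDC6 and CDT1 load the MCM helicase onto DNA, and CDC45 and the GINS complex then switch the helicase on. Clamp loaders place the PCNA ring on the template, polymerases extend primers made by primase, and FEN1 and DNA ligase I join the short Okazaki fragments of the lagging strand. Ribonucleotide reductase, thymidylate synthase and thymidine kinase make the deoxynucleotides. Myeloid progenitors divide rapidly, and maturing granulocytes leave the cell cycle as they differentiate.

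After removal of barcodes with fewer than 200 or more than 6000 genes, or over 10% mitochondrial UMIs, 5872 of 7821 barcodes remained. The share removed ran from 0.198% in HOXA9 OFF at 96 h to 66.2% in HOXA9 OFF at 0 h. The libraries held 473 to 1510 cells and 3524285 to 5589486 UMIs. Median depth was 5956 to 8660 UMIs per cell in 4 libraries but 3535.5 in HOXA9 OFF at 48 h and 2043.5 at 96 h, where the 10 most counted genes took 26.1% of UMIs, against 7.55 to 8.21% in the CAF-1 OFF and 0 h libraries. Of 7787 barcode sequences, 34 occurred in more than 1 library. Chaf1b stood at 35.6, 3.22 and 6.49 UMIs per 1000000 UMIs of the library (CPM) at 0, 48 and 96 h of CAF-1 OFF, whereas the HOXA9 OFF libraries had 51.5, 15.3 and 1.13 CPM. Its partner Chaf1a stood at 32.7, 29.0 and 23.0 CPM and at 32.2, 12.8 and 0 CPM. Progenitor markers (8 genes) summed to 7504 and 6685 CPM in the 0 h libraries, with all 8 detected, and late granulocyte markers (11 genes) to 34.2 and 30.8 CPM.

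Summed over the 35 genes, the level hardly differed between 0 and 48 h of CAF-1 OFF and was somewhat lower at 96 h, whereas in HOXA9 OFF it had largely gone by 96 h. The sum was 5033, 4917 and 3984 CPM at 0, 48 and 96 h of CAF-1 OFF. In the HOXA9 OFF arm it was 4619.8, 1677 and 257 CPM in the same order, in which all later triplets are given. The CAF-1 OFF library at 96 h was 1.26 (1.24 to 1.29) times lower than at 0 h, where the bracket gives the exact 95% interval of the ratio. The HOXA9 OFF libraries were 2.75 (2.69 to 2.82) times lower at 48 h and 18.0 (16.8 to 19.3) times lower at 96 h. Such intervals cover counting error only. The uninduced libraries, which had no treatment between them, lay further apart in the same sum (5033 against 4619.8 CPM) than the 0 and 48 h libraries of CAF-1 OFF. In a summed library, fewer cells with these transcripts and fewer transcripts per cell cannot be told apart. Counted per cell, the sum was 32.8, 29.6 and 23.6 UMIs under CAF-1 OFF and 40.9, 6.34 and 0.599 UMIs under HOXA9 OFF.

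**Figure D1:**
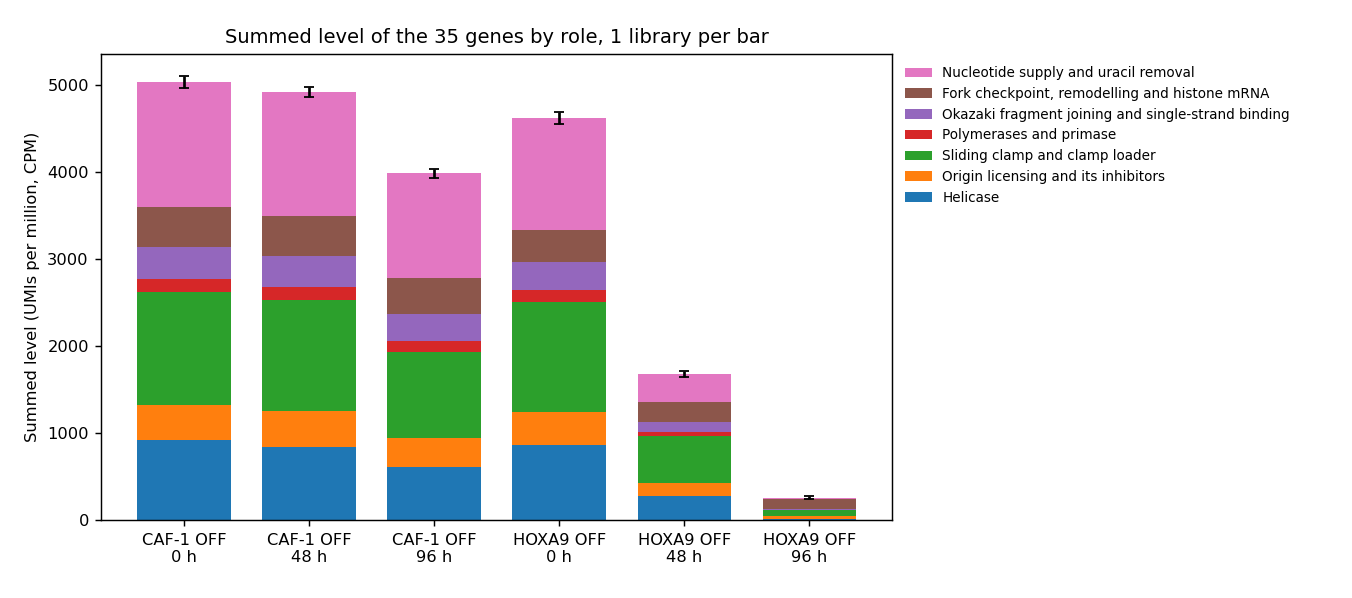
Stacked bars give the summed level of the 35 genes in CPM (y axis) in each of the 6 libraries (x axis), split by role, and the error bars are exact 95% counting intervals of the whole sum. The 3 CAF-1 OFF bars stand at 5033, 4917 and 3984 CPM and the HOXA9 OFF bars at 4619.8, 1677 and 257 CPM.

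Taken gene by gene, none of the 35 genes was 2-fold higher or 2-fold lower under CAF-1 OFF, and 25 and then all 35 were 2-fold lower under HOXA9 OFF. A gene counts as 2-fold changed when the ratio of its CPM values, after adding 10 CPM to each, reaches 2 against the 0 h library of its arm. At 48 h of CAF-1 OFF, 0 of 35 was past that size in either direction, where 2.76% of 4789 genes averaging 20 CPM or more were 2-fold higher and 0.0418% 2-fold lower. At 96 h of CAF-1 OFF it was again 0 of 35, against 5.22% of genes higher and 0.856% lower. At 48 h of HOXA9 OFF, 25 of 35 were 2-fold lower and 0 higher, against 19.6% of genes lower and 13% higher. By 96 h, 35 of 35 were 2-fold lower, against 39.8% of genes lower and 18.1% higher. With TMM scaling (trimmed means, which centre most genes), 34 of 35 and 31.1% of genes were lower there and 24.3% higher. Of the 35 genes, 31 reached the mean of 20 CPM that the background genes have, and the other 4 are counted with them.

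The direction was shared more widely than the size. On the log2 scale with 10 CPM added, the median of the 35 genes was -0.06 at 48 h and -0.41 at 96 h of CAF-1 OFF, and -1.28 and -2.94 under HOXA9 OFF. The median of all 4789 genes was 0, -0.08, -0.23 and -0.56 in the same comparisons. At 96 h of CAF-1 OFF, 33 of 35 genes stood below their 0 h value, as did 57.6% of all 4789 genes, although Gmnn, Pola1, Prim1 and Slbp lay so close to it that the sign turned under TMM scaling. The uninduced libraries give a yardstick, since Mcm6, the gene furthest apart between them, differed by 0.42. That distance was passed by 2 genes at 48 h and 17 genes at 96 h of CAF-1 OFF, and by 34 and 35 genes in HOXA9 OFF. Of all 4789 genes, 17.0% at 48 h and 36.0% at 96 h of CAF-1 OFF passed it. At the same times of HOXA9 OFF, 66.9% and 81.2% did. The distance was taken from the 35 genes themselves, so these shares cannot rank the set against all genes.

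**Figure D2:**
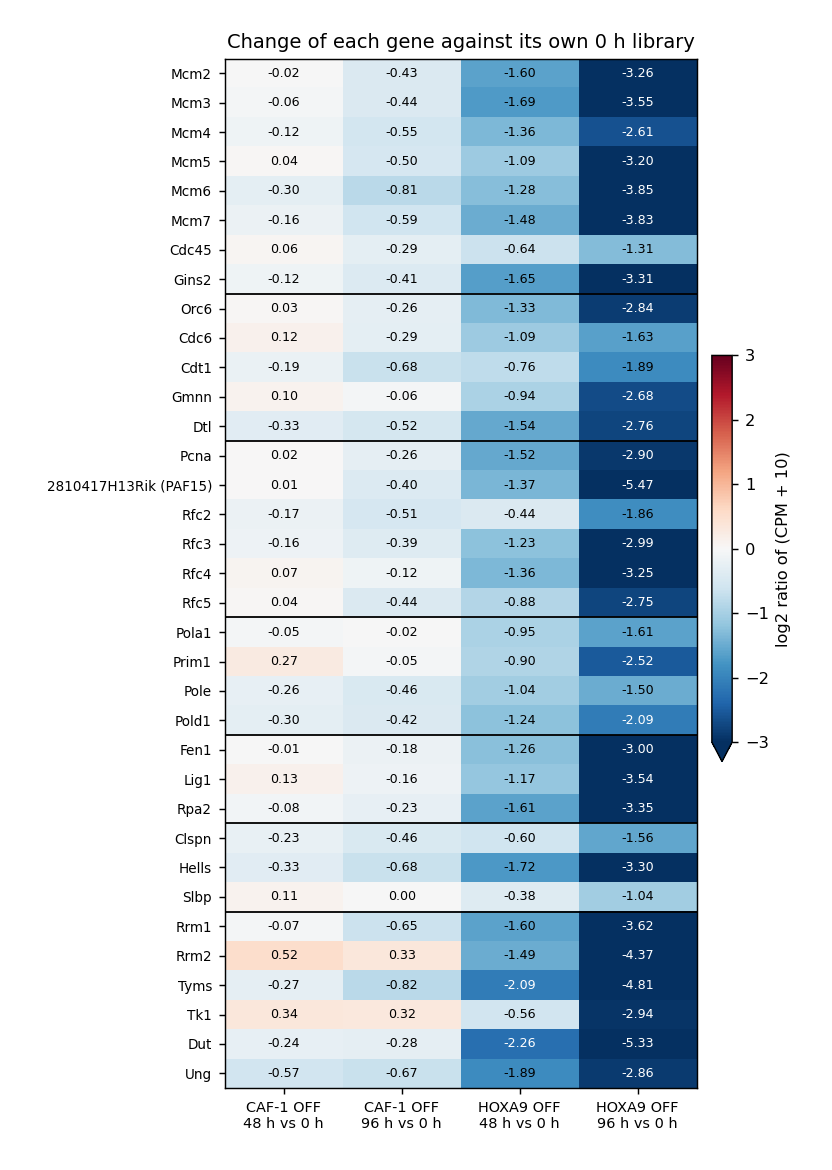
Each box gives the log2 ratio of (CPM + 10) of 1 gene (rows, in blocks by role) against the 0 h library of its arm, in the 4 comparisons (columns); blue is lower, red is higher, and colours saturate at 3. The CAF-1 OFF columns are pale with Rrm2 (0.33) and Tk1 (0.32) still red at 96 h, and the HOXA9 OFF 96 h column runs from -1.04 (Slbp) to -5.47 (2810417H13Rik).

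The stretches of DNA before these genes were examined because the genes share a direction. E2F factors, which drive entry into S phase, bind motifs of the type TTGGCGC, its variant TTCCCGC, its variant TTGCCGC or its variant TTCGCGC, and the factor NF-Y binds CCAAT. In the RefSeq windows of the GRCm38.p6 assembly, 30 of the 35 genes had an entry, and the 250 bases before the start were searched on both strands. An E2F-type match lay in 13 of the 30 genes (43.3%), against 17.7% of the 3715 genes of at least 20 CPM with a window and 9.01% of all 27025 genes with one. CCAAT lay in 18 of 30 (60%), against 42.0% of the genes of at least 20 CPM and 37.5% of all, and all 6 helicase genes with a window held it. The GC box GGGCGG, a motif of many promoters, lay in 18 of 30 (60%), against 64.3% and 35.4%. The 150 bases before the start are printed, in lower case with E2F-type and CCAAT matches in capitals, for 5 genes on which the later results turn: Mcm6, Rrm1, Rrm2, Tyms and Slbp.
Mcm6 promoter, chr1:128359706-128359855, minus strand: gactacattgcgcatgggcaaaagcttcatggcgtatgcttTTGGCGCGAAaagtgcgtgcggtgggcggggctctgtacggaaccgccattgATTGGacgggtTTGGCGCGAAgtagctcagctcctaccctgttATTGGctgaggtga
Rrm1 promoter, chr7:102441545-102441694, plus strand: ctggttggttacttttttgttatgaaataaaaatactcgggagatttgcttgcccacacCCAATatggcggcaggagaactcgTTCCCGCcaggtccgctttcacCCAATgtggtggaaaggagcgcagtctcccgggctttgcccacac
Rrm2 promoter, chr12:24708104-24708253, plus strand: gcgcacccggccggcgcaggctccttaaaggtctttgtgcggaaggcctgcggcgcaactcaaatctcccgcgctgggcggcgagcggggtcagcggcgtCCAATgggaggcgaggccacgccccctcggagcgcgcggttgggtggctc
Tyms promoter, chr5:30073626-30073775, minus strand: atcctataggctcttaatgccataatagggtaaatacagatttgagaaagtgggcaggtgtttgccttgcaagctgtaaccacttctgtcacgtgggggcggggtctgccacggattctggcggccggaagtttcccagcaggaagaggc
Slbp promoter, chr5:33652575-33652724, minus strand: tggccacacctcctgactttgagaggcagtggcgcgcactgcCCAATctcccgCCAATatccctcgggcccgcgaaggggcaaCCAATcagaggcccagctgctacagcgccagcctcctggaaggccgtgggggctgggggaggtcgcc
The Mcm6 stretch holds 4 E2F-type matches as 2 overlapping pairs, which begin 109, 106, 46 and 43 bases before the start, and the Rrm1 stretch holds 1 that begins 67 bases before it. Rrm2 has its 1 match further upstream, within the 250 bases searched, and the windows of Tyms and Slbp hold no E2F-type match, although Slbp holds CCAAT 3 times in the stretch printed. A match is a description of sequence and was not set against binding data.

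By summed CPM the helicase genes showed the largest difference of any role in CAF-1 OFF. Their median log2 ratio at 96 h, -0.47, was close to those of the nucleotide supply genes and of Clspn, Hells and Slbp, both -0.46. At 48 h of CAF-1 OFF the helicase median was -0.09 and that of Clspn, Hells and Slbp -0.23. The summed level of Mcm2 to Mcm7, Cdc45 and Gins2 was 917, 845 and 612 CPM under CAF-1 OFF and 861, 278 and 18.7 CPM under HOXA9 OFF. It was 0.668 (0.637 to 0.700) of the uninduced level at 96 h of CAF-1 OFF, and 3.10 and 46.0 times lower at 48 and 96 h of HOXA9 OFF. All 8 genes were below their 0 h value at 96 h of CAF-1 OFF, 6 of them by more than the 0.42 between the uninduced libraries.

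Mcm2, Mcm3, Mcm5, Mcm6 and Mcm7 encode subunits of the ring that unwinds DNA. Mcm6 had the lowest ratio of them under CAF-1 OFF, with 123, 98.0 and 65.4 CPM there and 167, 62.7 and 2.27 CPM under HOXA9 OFF, that is 1.87 (1.63 to 2.15) times lower at 96 h of CAF-1 OFF. Its promoter is the one with the paired E2F-type matches printed above, and any part of them in its level was not tested. Its 0 h values were the furthest apart between the arms. Mcm7 was at 251, 223 and 164 CPM under CAF-1 OFF and 201, 65.7 and 4.82 CPM under HOXA9 OFF. Mcm2 was at 86.6, 85.5 and 61.9 CPM and at 88.8, 22.6 and 0.284 CPM, the last value being 1 UMI. Neither had passed the 2-fold size under CAF-1 OFF, and both had done so by 48 h of HOXA9 OFF. Mcm3 stood at 120.1, 115 and 85.8 CPM under CAF-1 OFF and 120.0, 30.3 and 1.13 CPM under HOXA9 OFF. Mcm5 stood at 99.7, 103 and 67.7 CPM and at 89.7, 36.7 and 0.851 CPM. The 48 h libraries of CAF-1 OFF thus held Mcm2, Mcm3 and Mcm5 near their 0 h values, and the 96 h library was 1.40 to 1.47 times lower for these genes.

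Gins2, a subunit of the GINS complex that activates the helicase, was at 125, 114 and 91.6 CPM under CAF-1 OFF and 97.8, 24.5 and 0.851 CPM under HOXA9 OFF. Mcm4 and Cdc45, the genes of this role with a mean under 50 CPM, had log2 ratios of -0.55 and -0.29 at 96 h of CAF-1 OFF. Cdc45, which joins MCM and GINS in the moving helicase, had the smallest difference of the 8 in HOXA9 OFF, a log2 ratio of -1.31 at 96 h.

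Taken as a sum, genes that license origins and those that keep licensing to a single round lay nearer to their uninduced level in CAF-1 OFF than the helicase genes. Their median log2 ratio at 96 h was -0.29, against -0.47 for the helicase genes. Their sum was 411, 408 and 336 CPM under CAF-1 OFF and 381, 153 and 25.8 CPM under HOXA9 OFF. That is 1.22 (1.14 to 1.31) times lower at 96 h of CAF-1 OFF, and 2.49 and 14.7 times lower at 48 and 96 h of HOXA9 OFF. Orc6, a subunit of the origin recognition complex, stood at 87.3, 89.3 and 71.0 CPM under CAF-1 OFF and 77.8, 25.0 and 2.27 CPM under HOXA9 OFF. Gmnn encodes geminin, which binds CDT1 and blocks a second round of licensing. It was at 188, 202 and 179 CPM under CAF-1 OFF and 184, 91.3 and 20.4 CPM under HOXA9 OFF, 0.954 (0.867 to 1.05) of its uninduced level at 96 h of CAF-1 OFF, an interval that includes 1. Gmnn thus made up 188 of the 411 CPM of the sum at 0 h and 179 of the 336 CPM at 96 h of CAF-1 OFF, and the sum follows it in large part. Cdt1, the factor that geminin inhibits, was at 0.538 (0.425 to 0.679) of its uninduced level at 96 h of CAF-1 OFF. The intervals of Gmnn and Cdt1 at 96 h of CAF-1 OFF did not overlap. Dtl, a part of the ubiquitin ligase that degrades CDT1 in S phase, had a log2 ratio of -0.52 there, and Cdc6, the loading factor, -0.29. In HOXA9 OFF at 96 h, Gmnn kept 72 UMIs while Cdc6 had none and Dtl had 1.

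The clamp that holds polymerases on DNA and the complex that loads it were at 1293, 1272 and 985 CPM summed under CAF-1 OFF and 1265, 541 and 73.8 CPM under HOXA9 OFF. The sum was 1.31 (1.26 to 1.36) times lower at 96 h of CAF-1 OFF and 17.2 times lower at 96 h of HOXA9 OFF. Pcna, the clamp itself, was at 151, 154 and 125 CPM under CAF-1 OFF and 158, 48.2 and 12.5 CPM under HOXA9 OFF. A pseudogene column, Pcna-ps2, held 73 UMIs over all libraries, so that counting could have split a small part of the Pcna reads. 2810417H13Rik encodes PAF15, a protein that binds PCNA at the fork. It was at 621, 625 and 467 CPM under CAF-1 OFF and 634, 239 and 4.54 CPM under HOXA9 OFF. With 10 CPM added this was the largest log2 difference of the 35 genes at 96 h of HOXA9 OFF (-5.47), whereas from the CPM alone it was 139.6 (85.8 to 245) times lower and Dut 239 (116 to 594) times lower. Its fold was 1.01 (0.955 to 1.06) at 48 h of CAF-1 OFF and 0.752 (0.712 to 0.795) at 96 h.

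Rfc2 to Rfc5 are the smaller subunits of the clamp loader and were lower by unlike amounts in HOXA9 OFF. Rfc2 was at 209, 184 and 143 CPM under CAF-1 OFF and 207, 149.7 and 49.7 CPM under HOXA9 OFF. Rfc3 was at 100.1, 88.4 and 74.0 CPM and at 78.5, 27.7 and 1.13 CPM. Rfc2 was thus 4.16 (3.53 to 4.92) times lower at 96 h of HOXA9 OFF, where Rfc3 was 69.2 (26.8 to 255) times lower. Rfc4 was at 125, 132 and 114 CPM under CAF-1 OFF and 107, 35.6 and 2.27 CPM under HOXA9 OFF. Rfc5 was at 86.8, 89.3 and 61.2 CPM and at 82.1, 40.1 and 3.69 CPM. In CAF-1 OFF the order was another one, as Rfc4 was the nearest of the 4 to its uninduced level at 96 h (fold 0.915 (0.813 to 1.03)) and Rfc2 the furthest from it (fold 0.686 (0.622 to 0.757)).

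The polymerase and primase genes all had means under 50 CPM. Summed, Pola1, Prim1, Pole and Pold1 were at 149, 148 and 124 CPM under CAF-1 OFF and 132, 44.4 and 3.12 CPM under HOXA9 OFF, 1.20 times lower at 96 h of CAF-1 OFF and 42.3 (23.4 to 85.2) times lower at 96 h of HOXA9 OFF. Pola1 and Prim1, which together start each new strand, had log2 ratios of -0.02 and -0.05 at 96 h of CAF-1 OFF. Pole and Pold1, the catalytic subunits of the polymerases that extend the leading and lagging strands, had -0.46 and -0.42. The counting interval of the Prim1 fold, 0.959 (0.815 to 1.13), overlapped those of Pole, 0.625 (0.467 to 0.835), and Pold1, 0.681 (0.541 to 0.858).

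The genes for joining Okazaki fragments and for coating exposed strands stood at 363, 366 and 314 CPM summed under CAF-1 OFF, where the 96 h library was 1.16 (1.08 to 1.24) times lower, and at 324, 109 and 6.24 CPM under HOXA9 OFF, where it was 51.8 times lower. Fen1, the flap nuclease, was at 129, 128 and 112 CPM under CAF-1 OFF and 102, 36.5 and 3.97 CPM under HOXA9 OFF. Lig1, the ligase that seals the nicks, was at 108, 119 and 95.3 CPM and at 106, 41.8 and 0 CPM. Rpa2, a subunit of the protein that binds unpaired DNA, was at 127, 119.9 and 106 CPM and at 116, 31.1 and 2.27 CPM. These 3 genes differed by no more than 0.23 on the log2 scale at 96 h of CAF-1 OFF, all within the 0.42 between the uninduced libraries. With no Lig1 UMI at 96 h of HOXA9 OFF, its level was at least 125 times lower, taking 3 counts as the upper limit.

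The remaining fork genes differed among themselves. Hells, a chromatin remodeller of the lymphoid-specific helicase type, was at 99.7, 77.3 and 58.6 CPM under CAF-1 OFF and 93.8, 21.5 and 0.567 CPM under HOXA9 OFF, 1.70 (1.47 to 1.97) times lower at 96 h of CAF-1 OFF. Clspn, encoding the checkpoint mediator claspin, had log2 ratios of -0.46 at 96 h of CAF-1 OFF and -1.56 at 96 h of HOXA9 OFF. Slbp encodes the protein that binds the stem loop of histone mRNAs and is needed to process them. It was at 334, 362 and 333 CPM under CAF-1 OFF and 259, 196 and 121 CPM under HOXA9 OFF. Its fold at 96 h was 0.997 (0.930 to 1.07) under CAF-1 OFF, and under HOXA9 OFF it was 2.14 (1.91 to 2.40) times lower, the smallest difference of the 35 genes. Slbp supplied 47.1% of the UMIs of the set in that library, Rfc2 19.3% and Gmnn 7.96%.

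In nucleotide supply the 2 subunits of ribonucleotide reductase parted in CAF-1 OFF. Rrm1, the large subunit, was at 147, 139.9 and 89.9 CPM under CAF-1 OFF and 123, 33.9 and 0.851 CPM under HOXA9 OFF. Rrm2, the small subunit whose level follows S phase, was at 283, 409 and 359 CPM and at 232, 76.3 and 1.70 CPM. At 96 h of CAF-1 OFF the Rrm1 fold was 0.612 (0.542 to 0.691) and the Rrm2 fold 1.27 (1.18 to 1.36), with intervals well apart. In HOXA9 OFF both were lower at 48 and 96 h.

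The enzymes that make thymidine nucleotides parted as well. Tyms, thymidylate synthase of the de novo route, was at 349, 288 and 194 CPM under CAF-1 OFF and 319, 67.0 and 1.70 CPM under HOXA9 OFF. Tk1, thymidine kinase of the salvage route, was at 87.1, 113 and 112 CPM and at 73.0, 46.1 and 0.851 CPM. The Tyms fold at 96 h of CAF-1 OFF was 0.555 (0.513 to 0.602), and that of Tk1 was 1.28 (1.12 to 1.46). With 10 CPM added, Tyms had the lowest log2 ratio of the 35 genes there (-0.82), and without them Mcm6 and Cdt1 lay lower. Rrm2 and Tk1 were the only genes of the set above their uninduced level at 96 h of CAF-1 OFF by CPM. Both stayed above it under each of the 4 other scalings run. Under TMM scaling Gmnn, Pola1, Prim1 and Slbp were slightly above it too, and Slbp also under median-of-ratios scaling. The log2 ratios of Rrm2 and Tk1, 0.33 and 0.32, are within the 0.42 by which Mcm6 differed between the uninduced libraries. They are thus not larger than the largest difference seen without treatment. At 48 h Rrm2 was past it, with a fold of 1.45 (1.35 to 1.55).

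Dut and Ung keep uracil out of DNA, the first by hydrolysing dUTP and the second by excising uracil from the strand. Dut was at 490.4, 415 and 403 CPM under CAF-1 OFF and 474, 90.8 and 1.99 CPM under HOXA9 OFF. Its log2 ratio at 48 h of HOXA9 OFF was the lowest of the set with 10 CPM added (-2.26), and without them Ung was lower, at 0.153 (0.111 to 0.207) of its uninduced level against 0.192 (0.173 to 0.212) for Dut. Ung had the lowest log2 ratio of the set at 48 h of CAF-1 OFF (-0.57) and no UMI at 96 h of HOXA9 OFF. Summed over the 6 nucleotide genes, the level was 1440.3, 1418 and 1206 CPM under CAF-1 OFF and 1283, 324 and 7.09 CPM under HOXA9 OFF. The HOXA9 OFF values were 3.96 (3.75 to 4.19) times lower at 48 h and 181 (122 to 279.8) times lower at 96 h, the furthest below 0 h of the 7 roles at both times.

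**Figure D3:**
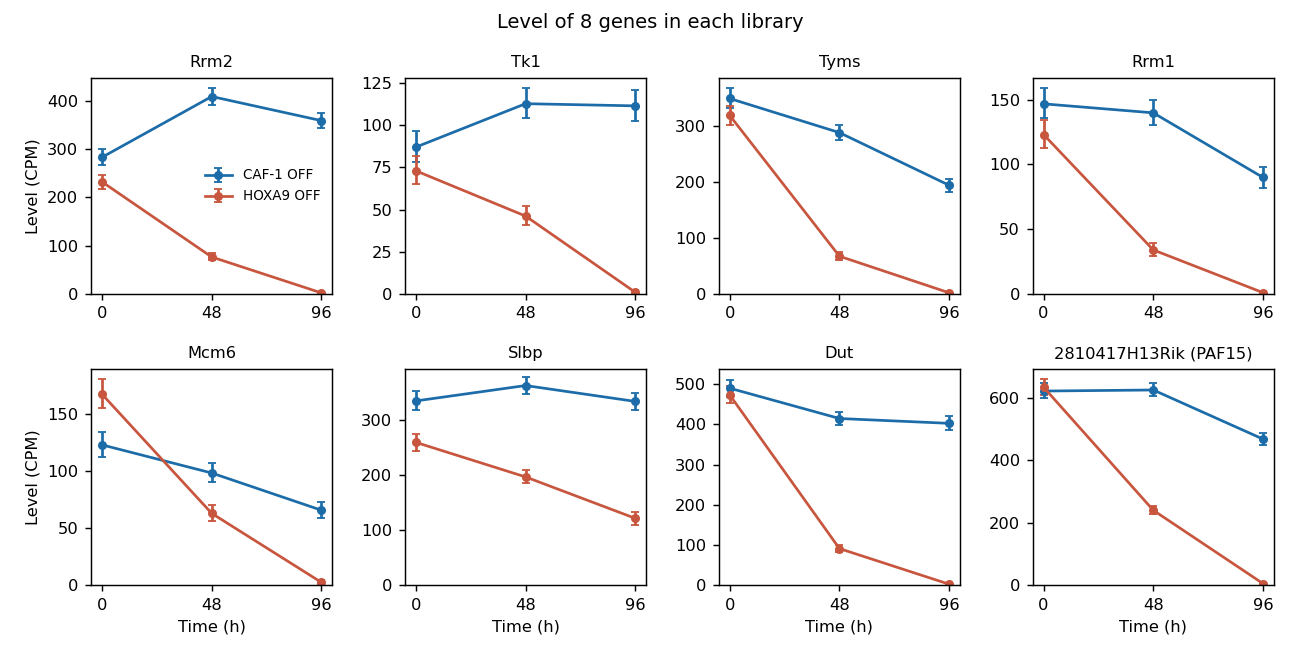
Each panel gives the level of 1 gene in CPM (y axis, from 0) at 0, 48 and 96 h (x axis), blue for CAF-1 OFF and red for HOXA9 OFF, 1 library per point with exact 95% counting intervals. Rrm2 and Tk1 end above their uninduced CAF-1 OFF level (359 against 283 CPM, 112 against 87.1 CPM), Tyms, Rrm1 and Mcm6 end below it, and Slbp keeps 121 CPM at 96 h of HOXA9 OFF.

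Other cell type markers moved with these libraries and are given beside the results. In HOXA9 OFF, late granulocyte markers summed to 30.8, 9813 and 147636.5 CPM. Of them, 8 of 11 genes were 2-fold higher at 48 h and 11 of 11 at 96 h. S100a8, S100a9, Ltf and Ngp were all well above 0 at 96 h. Of all 4789 genes in that arm, 13% were 2-fold higher at 48 h and 18.1% at 96 h. At 96 h 39.8% were 2-fold lower. Progenitor markers summed to 6685, 3988 and 115 CPM under HOXA9 OFF, with 8 of 8 genes 2-fold lower at 96 h. Under CAF-1 OFF they summed to 7504, 9001 and 11374.5 CPM. At 96 h of CAF-1 OFF, 5 of the 8 genes lay below their 0 h value and 3 above, where 57.6% of all 4789 genes lay below. In CAF-1 OFF, early granulocyte markers (6 genes) summed to 342, 1915 and 3692 CPM, with 5 of 6 genes 2-fold higher at 96 h. Megakaryocyte markers (8 genes) summed to 45.8, 503 and 2697 CPM, with 4 of 8 genes 2-fold higher and Gp1bb at 0 in all 6 libraries, and mast cell or basophil markers (8 genes) to 286, 1465 and 4044 CPM, with 2 of 8. Late granulocyte markers reached 1202 CPM at 96 h of CAF-1 OFF, with 4 of 11 genes 2-fold higher. Mmp8 and Lcn2 held 724 and 428 CPM of it, and Ltf and Ly6g were at 0. Of all 4789 genes, 5.22% were 2-fold higher in that library. Eosinophil markers (8 genes) were at 228, 482 and 1265 CPM under CAF-1 OFF, with 2 of 8 genes 2-fold higher at 96 h. These were Prg2 and Prg3, at 879 and 362 CPM there. In the HOXA9 OFF arm eosinophil markers were at 1481, 19335 and 3301 CPM, of which Prg2 held 876, 16628.6 and 3021 CPM. Erythroid markers (9 genes) were at 102, 234 and 315 CPM under CAF-1 OFF, with 2 of 9 genes 2-fold higher at 96 h. Car2 alone held 288 of those 315 CPM, and Car1 and Alas2 were at 0. The erythroid sum was 91.6, 22.4 and 6.81 CPM in the HOXA9 OFF arm. In that arm early granulocyte markers were at 259, 3207 and 4926 CPM, with 3 of 6 genes 2-fold higher and 3 lower at 96 h, and mast cell or basophil markers at 812, 529.5 and 85.1 CPM. Monocyte markers were at 673 to 809.7 CPM and lymphoid markers at 266 to 438 CPM across CAF-1 OFF, and at 501 to 1648 CPM and 1.70 to 340.1 CPM across HOXA9 OFF. The part of any of these in the levels of the replication genes was not tested.

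To see whether all cells or some carried the change, every cell was thinned to 1300 UMIs and the UMIs of the 35 genes in it were counted. A cell then held a median of 6, 6 and 4 of these UMIs under CAF-1 OFF and 6, 1 and 0 under HOXA9 OFF. The share of cells with at least 5 was 69.4% (65.6 to 72.9, exact binomial interval), 66.0% and 48.4% (45.1 to 51.8) under CAF-1 OFF, and 64.4%, 12.3% (10.6 to 14.1) and 0 under HOXA9 OFF. The last is 0 of 1376 cells, which allows a share of up to 0.268% by the exact interval. Before thinning, the shares were 96.6%, 96.0% and 87.3% under CAF-1 OFF and 97.3%, 26.1% and 0.464% under HOXA9 OFF.

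The lower sum at 96 h of CAF-1 OFF was not spread evenly over the cells. The 90th percentile of cells was 11 UMIs in all 3 CAF-1 OFF libraries, while the 10th percentile went from 2 to 1. Cells without any such UMI made up 1.74%, 2.32% and 7.98% in CAF-1 OFF, and cells with at least 10 made up 17.5%, 17.0% and 16.2%. The share with at least 10 UMIs was thus much alike at the 3 times, and the difference lay below 10 UMIs. Each number from 5 to 9 UMIs had a smaller share of cells at 96 h than at 0 h. At 9 UMIs, for example, it was 4.21% against 9.32%. Each number from 0 to 3 UMIs had a larger share at 96 h. In HOXA9 OFF the spread was wider still at 48 h, when 47.7% of cells had no such UMI and the 10% of cells with most UMIs held 53.9% of them, against 20.6% at 0 h. The ratio of variance to mean, which is 1 for counts that scatter at random around 1 level, was 1.75, 1.98 and 3.00 under CAF-1 OFF and 1.67, 5.04 and 1.00 under HOXA9 OFF.

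**Figure D4:**
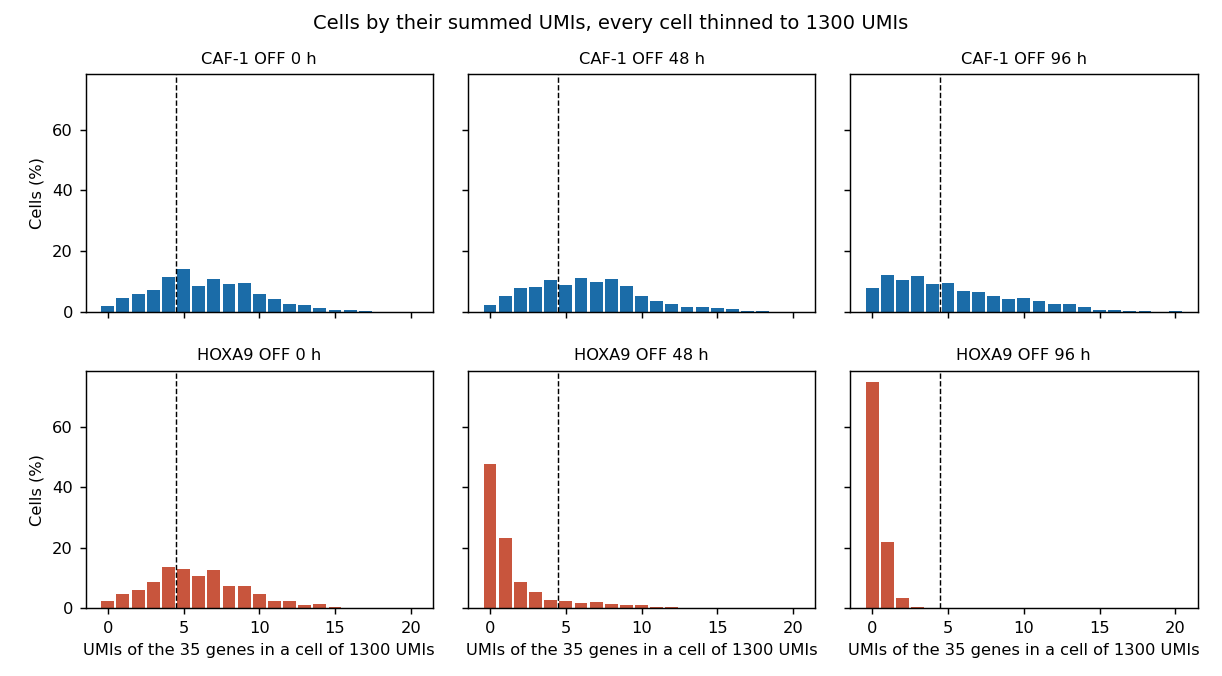
Bars give the percent of cells (y axis) with each number of UMIs of the 35 genes (x axis) after every cell was thinned to 1300 UMIs, 1 panel per library, blue for CAF-1 OFF and red for HOXA9 OFF; the dashed line marks 5 UMIs. The share right of the line is 69.4, 66.0 and 48.4% under CAF-1 OFF and 64.4, 12.3 and 0% under HOXA9 OFF, where 47.7% of cells at 48 h and 74.6% at 96 h sit at 0.

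Cells with more UMIs of some of these genes also had more of the others. The genes, listed by role, were split into 18 and 17 by taking every other gene, and cells were grouped by their UMIs of the 18 alone. Cells with at least 3 such UMIs made up 52.4%, 55.3% and 40.5% under CAF-1 OFF and 49.4%, 11.5% and 0 under HOXA9 OFF. The mean of the other 17 genes in them was 4.0, 3.63 and 3.65 UMIs under CAF-1 OFF and 3.42 and 3.10 UMIs at 0 and 48 h of HOXA9 OFF. Cells with at least 3 UMIs at 48 h of HOXA9 OFF thus held the others at nearly the uninduced level, and there were fewer of them. Cells with 1 or 2 such UMIs, 25% of cells in that library, held 0.983 UMIs of the other 17 genes. In the uninduced library of that arm cells with 1 or 2 held 3.21. Cells with 0 UMIs of the 18 genes made up 8.69%, 9.15% and 20.2% under CAF-1 OFF and 12.1%, 63.5% and 82.9% under HOXA9 OFF. Their mean of the other 17 genes was 2.13, 1.73 and 1.07 UMIs under CAF-1 OFF and 1.93, 0.335 and 0.110 UMIs under HOXA9 OFF. Pearson's r between the 2 sets of genes over cells was 0.27, 0.29 and 0.45 under CAF-1 OFF and 0.22, 0.61 and -0.005 under HOXA9 OFF, a description over 472 to 1376 cells of 1 library each.

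**Figure D5:**
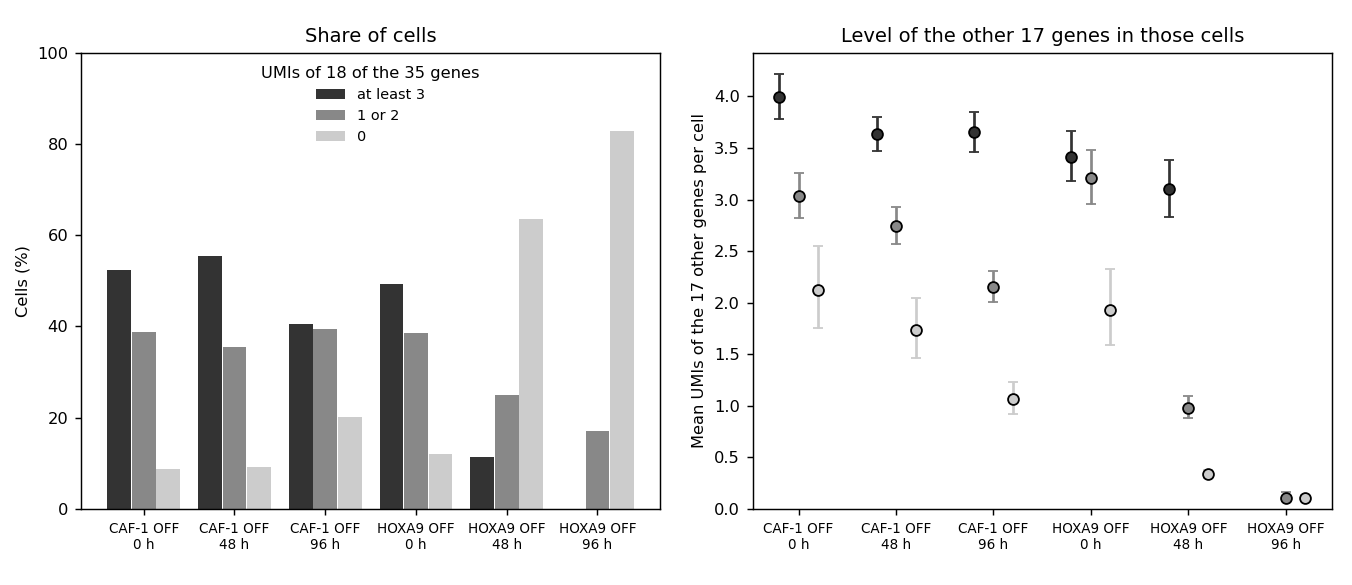
Left, bars give the percent of cells (y axis) with at least 3, 1 or 2, or 0 UMIs of 18 of the genes in each library; right, points give the mean UMIs per cell of the other 17 genes (y axis) in the same cells, with exact 95% counting intervals. The dark bar is 11.5% of cells at 48 h of HOXA9 OFF, yet the dark point of that library, at 3.10 UMIs, is close to the 3.42 UMIs of its uninduced library.

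At 48 h of HOXA9 OFF the cells with and without these transcripts differed in their markers. Cells with at least 3 UMIs of the 18 genes had 9.04 progenitor marker UMIs on average and those with 0 had 2.79. Early granulocyte markers were at 7.74 against 3.22 UMIs and the G2/M genes, which act in mitosis, at 3.15 against 0.331 UMIs. Summed late granulocyte markers were at 11.5 against 17.8 UMIs and eosinophil markers (8 genes) at 1.81 against 33.0 UMIs. A split by the late granulocyte genes S100a8 and S100a9 did not give that order, since cells with at least 1 of their UMIs had 2.01 UMIs of the 35 genes and the other cells 1.38, and with at least 5 it was 1.82 against 1.68. Median depth before thinning was 5130 against 3308 UMIs, and its part in these differences was not tested beyond the thinning. The same split at 96 h of CAF-1 OFF gave 1.51 against 4.20 eosinophil marker UMIs and 4.45 against 5.66 early granulocyte marker UMIs. Median depth there was 6173 against 4787.5 UMIs. The eosinophil order was also present without treatment. It was 0.157 against 4 UMIs at 0 h of CAF-1 OFF and 0.279 against 11.4 UMIs at 0 h of HOXA9 OFF. At 48 h of CAF-1 OFF it was 0.281 against 2.36 UMIs.

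Cells with early granulocyte UMIs had fewer replication UMIs at all 3 times of CAF-1 OFF, and in HOXA9 OFF the order differed with time. Cells with at least 1 early granulocyte UMI had 5.83, 5.84 and 4.97 UMIs of the 35 genes in CAF-1 OFF, where cells without had 6.58, 7.20 and 6.57 UMIs. At 48 h of HOXA9 OFF the order was opposite, with 2.07 UMIs in cells that had such a UMI and 0.708 in cells that had none. The values were 6.22 against 5.86 UMIs at 0 h and 0.28 against 0.34 UMIs at 96 h of that arm. The cells without early granulocyte UMIs at 96 h of CAF-1 OFF thus stood at the uninduced level, and they were 89 of 902 cells. Cells with a UMI of Pf4 or Itga2b, both megakaryocyte genes, had 5.66 and 5.01 UMIs of the 35 genes at 48 and 96 h of CAF-1 OFF, against 6.61 and 5.71 UMIs in the other cells.

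Single genes followed the same pattern in their share of thinned cells with a UMI. PAF15 (2810417H13Rik) was detected in 49.3%, 53.7% and 35.8% of cells under CAF-1 OFF and in 53.4%, 12.0% and 0.145% under HOXA9 OFF. Dut was detected in 42.0%, 40.6% and 37.6% of cells under CAF-1 OFF and in 43.0%, 7.19% and 0.145% under HOXA9 OFF. Rrm2 was detected in 28.8%, 37.5% and 32.2% of cells under CAF-1 OFF and in 19.7%, 5.52% and 0 under HOXA9 OFF. What free RNA adds to these shares was not measured. Slbp was detected in 36.3%, 37.6% and 33.8% of cells under CAF-1 OFF and in 28.6%, 19.2% and 14.5% under HOXA9 OFF, so that its remaining UMIs were spread over many cells.

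Few cells held most of the remaining UMIs of some of the genes at 96 h of HOXA9 OFF, though not of the set. Here 4 of 1510 cells had at least 10 progenitor marker UMIs, a number chosen after the data were seen, and the median of the other 1506 cells was 0. These 4 cells held 75 of the 905 UMIs of the set (8.29%), and 64 of 304 (21.1%) once Slbp and Rfc2 are set aside, so that 240 of those 304 lay in other cells. They held all 6 UMIs of Rrm2, 5 of 6 of Tyms and 15 of 16 of PAF15 (2810417H13Rik), but 1 of 72 of Gmnn, 2 of 44 of Pcna and 1 of 17 of Mcm7. The cell with most had 52 UMIs of 23 of the genes among its 13329 UMIs, with 117 progenitor and 31 G2/M marker UMIs, and the next had 19 UMIs of 13 genes. Without the 4 cells the whole set was 19.4 times lower than at 0 h in place of 18.0. The nucleotide genes were then 559 times lower (8 UMIs) in place of 181, and the polymerase genes 76.6 times in place of 42.3.

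Other genes of the same pathways, taken from lists of replication, nucleotide, G1/S and G2/M genes, showed how far the pattern reached. Of 44 other replication fork and origin genes, 0 was 2-fold changed at 96 h of CAF-1 OFF (median -0.21 on the log2 scale). Of all 4789 genes, 5.22% were 2-fold higher and 0.856% lower there. At 96 h of HOXA9 OFF, 30 of the 44 were 2-fold lower and 1 higher (median -1.39). In that library 39.8% of all 4789 genes were lower and 18.1% higher (median -0.56). Pola2, a partner of Pola1, was at 45.3, 83.5 and 75.8 CPM under CAF-1 OFF. Tipin, a fork protection factor, was at 264, 78.1 and 3.12 CPM under HOXA9 OFF. Pold4, a small subunit of polymerase delta, was the 1 gene of this list past 2-fold in the higher direction, at 127, 442 and 269 CPM.

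Of 35 other nucleotide synthesis genes, 2 were 2-fold lower at 96 h of CAF-1 OFF (median -0.47), against 0.856% of all genes. In HOXA9 OFF at 96 h, 26 were lower and 2 higher (median -2.04), against 39.8% and 18.1% of all genes. Dctd, which deaminates dCMP on the way to thymidylate, was at 50.1, 35.6 and 18.2 CPM under CAF-1 OFF. Dtymk, the kinase that follows TYMS and TK1, was at 374, 135 and 11.9 CPM under HOXA9 OFF. Samhd1, which breaks dNTPs down, was higher there, at 14.3, 74.9 and 330.3 CPM.

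Of 29 E2F and G1/S control genes, 28 had a UMI. In CAF-1 OFF 2 were 2-fold higher at 96 h (5.22% of all genes were), Cdkn2c at 20.2, 67.1 and 79.5 CPM and Cdkn2d at 69.0, 109.8 and 152 CPM, both inhibitors of CDK4 and CDK6. Cdk4, which with cyclin D opens the way to S phase, was at 657, 509.5 and 351 CPM under CAF-1 OFF and 597, 114 and 18.7 CPM under HOXA9 OFF. In HOXA9 OFF at 96 h, 8 genes of this list were 2-fold lower and 4 higher, in a background of 39.8% of genes lower and 18.1% higher, shares above those of the list. Among the higher ones, Cdkn2d was at 50.8, 139 and 190.1 CPM and Ccnd3, encoding cyclin D3, at 82.8, 303 and 290.0 CPM.

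The 25 G2/M genes had a median log2 ratio of 0.15 and 0.07 at 48 and 96 h of CAF-1 OFF. At both times 0 of 25 was 2-fold changed. Of all 4789 genes, 2.76% at 48 h and 5.22% at 96 h of CAF-1 OFF were 2-fold higher, and 0.0418% and 0.856% lower. Nusap1, a spindle protein, was at 40.3, 60.5 and 76.7 CPM under CAF-1 OFF. In HOXA9 OFF, 11 were 2-fold lower at 48 h, against 19.6% of all genes, and 25 of 25 at 96 h (median -2.65), against 39.8%, with Cdk1, the mitotic kinase, at 202, 65.3 and 0.851 CPM. Over the background of 4789 genes, the ones whose 4 log2 ratios lay nearest to the median of the 35 genes were Hsd17b12, Mrpl11, Snrpd2, Mrpl13 and Eny2, with root mean square differences of 0.08 to 0.11 on the log2 scale. None of the 5 belongs to the lists used here.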

How the data were processed

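Live cells were sorted, prepared with 10x Chromium 3′ v2 chemistry and aligned by the authors to GRCm38 (mm10) with Cell Ranger. The deposited table holds raw UMI counts per gene and barcode, not normalized. The submitters' processing notes name Cell Ranger 3.0.1, Scanpy 1.4.6 and Seurat 3.0.1. The 35 genes and all lists were chosen with earlier results of these data known. Barcodes with 200 to 6000 genes and at most 10% mitochondrial UMIs were kept, as in the study's methods, which leaves 5872 cells in 6 libraries. UMIs were summed per library and divided by the library's total (CPM). Total counts per library were 3524285 to 5589486, and single genes with few UMIs have wide intervals. Ratios were taken to the 0 h library of the same arm, on the log2 scale with 10 CPM added where a count of genes is given. Intervals are exact 95% Poisson or binomial intervals of counts. A library at 0 was set to 3 counts for a bound. Per-cell shares were taken after thinning each cell to 1300 UMIs (seed 1), which left out 206 cells below that depth. The 24 genes whose mean reached 50 CPM are given in every library, the other 11 by ratios, ranges or counts. In further lists up to 3 genes of largest rise or fall per arm were eligible to be named. With 1 library per group no test was run. Doublets were not removed, and Scrublet calls were tried as an alternative, as were other scalings, sizes, pseudocounts and filters. Promoter sequences came from RefSeq (GRCm38.p6) and 5 genes had no entry. Python 3.11.15, numpy 2.4.6, scipy 1.17.1 and edgeR 4.0.16 (for TMM factors) were used, and the calculations were tested on simulated data.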

Additional observations from a re-analysis of the deposited data

Results flagged for a closer look

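Rrm2 and Tk1 were above their 0 h level in CAF-1 OFF and below it in HOXA9 OFF, with counting intervals on opposite sides of 1. The Rrm2 fold was 1.45 at 48 h and 1.27 at 96 h of CAF-1 OFF, against 0.328 and 0.00733 in HOXA9 OFF. The Tk1 fold was 1.30 and 1.28 against 0.632 and 0.0117. Prim1 and Slbp had this split at 48 h only. The Prim1 fold was 1.24 against 0.443 and that of Slbp 1.08 against 0.758. With 1 library per arm and time, the difference between the arms was not tested.

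The barcodes left out by the filter also held UMIs of the 35 genes. In CAF-1 OFF they reached 3838 CPM at 48 h and 4999 CPM at 96 h, above the 3363 CPM of the barcodes left out at 0 h. In HOXA9 OFF the 927 barcodes left out at 0 h held 1505 CPM, against 4619.8 CPM in the cells kept. The 193 left out at 48 h held 1378.5 CPM, and the 3 left out at 96 h held no UMI of the set. The filter thus acted unequally on the libraries of that arm.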

How the results depend on the processing

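No paired analysis was possible because each group is 1 library. The summed log2 ratio (CPM without added counts) at 48 h of CAF-1 OFF, -0.03, became -0.10 with median-of-ratios scaling, -0.15 per cell and 0.0090 with all deposited barcodes, so its sign is not fixed. At 96 h of CAF-1 OFF, -0.34 became -0.26 with TMM, -0.47 per cell, -0.26 with all barcodes and -0.37 without 2810417H13Rik, Dut and Slbp. At 48 h of HOXA9 OFF, -1.46 became -1.16 with TMM, -1.22 with median-of-ratios, -2.69 per cell, -1.29 with all barcodes and -1.50 without those 3 genes. At 96 h of HOXA9 OFF, -4.17 became -3.68 with TMM, -3.60 with median-of-ratios, -4.59 without mitochondrial and ribosomal protein genes in the total, -6.09 per cell, -3.99 with all barcodes and -4.65 without the 3 genes. Leaving out the 4 progenitor marker cells, chosen after seeing the data, gave -4.28.

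At a 1.5-fold size, 7 genes were lower at 96 h of CAF-1 OFF. The share of all genes was not taken at other sizes or with other CPM added. Counts at those settings therefore cannot be set against a background. At 48 h of HOXA9 OFF the 25 lower genes became 10 with 50 CPM added and 2 at a 4-fold size, and 20 to 35 across the scalings and cell filters run. At 96 h of HOXA9 OFF, 34 genes were lower with TMM, median-of-ratios and all barcodes, where Slbp dropped out. Scaling moved the median of all genes at 96 h of HOXA9 OFF by 0.38 (TMM), 0.44 (median-of-ratios), -0.37 (no mitochondrial or ribosomal genes) and -1.15 (per cell), at 48 h by 0.25 (TMM), 0.20 (median-of-ratios) and -0.91 (per cell), at both times by 0.12 with all barcodes, and at 96 h of CAF-1 OFF by -0.12 (per cell). The genes 2-fold higher and lower at 96 h of HOXA9 OFF were, in the first order, 24.3 and 31.1%, 25.5 and 29.5%, 14.2 and 48.5%, and 5.43 and 71.9%. At 48 h they were 16.6 and 13.8% (TMM), 15.6 and 14.9% (median-of-ratios) and 4.18 and 56.3% (per cell). Over 13565 genes with no minimum level, 5.96% were higher and 8.35% lower at 48 h and 10.3% and 18.1% at 96 h of HOXA9 OFF.

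The share of thinned cells with at least 3 UMIs was 88.0, 84.7 and 69.4% under CAF-1 OFF and 86.9, 20.6 and 0.363% under HOXA9 OFF. With at least 10 it was 17.5, 17.0 and 16.2% under CAF-1 OFF and 12.9 and 3.63% at 0 and 48 h of HOXA9 OFF. Without thinning it was 96.6, 96.0, 87.3, 97.3, 26.1 and 0.464% in the same order. At 2600 UMIs and at least 10 it was 14.4% at 48 h of HOXA9 OFF. For single genes, 569 values moved by less than their counting interval and 131 by more, with no call reversed. Of 5872 cells, Scrublet called 125.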
